A study of Homo sapiens with 4 samples.

Results

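The genes described here are regulators, partners and transcriptional targets of the tumour suppressor p53, chosen by name: 44 symbols, of which 42 were found among the 55764 gene names of the deposited expression table. TNFRSF10B-AS1 was absent, and TIGAR was absent under that symbol. The death receptor and BCL2 family targets of p53 were left out, apart from FAS and EDA2R.

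The p53 protein is a transcription factor held at low levels by the ubiquitin ligase MDM2 and its relative MDM4. When DNA damage or another stress frees it, p53 raises genes that stop the cell cycle, repair DNA, adjust metabolism or kill the cell, and it also raises MDM2 and the phosphatase PPM1D, which switch it off again. Several of these targets, among them GDF15, SESN2 and GADD45A, also answer to other stress pathways, so their level alone does not report p53 activity.

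The measurements are bulk RNA-seq of TE5, a human line from a squamous cell carcinoma of the oesophagus, in 2 groups of 2 libraries. The ETS1 group stably carried a lentiviral vector in which a CMV promoter drives ETS1, a transcription factor that binds the sequence core GGAA; the control group, whose genotype is labelled WT, carried the empty backbone. The libraries were numbered 1 and 2 in each group, and the labels do not say whether they came from separate infections or cultures or whether the cells were a clone, so p-values measure the spread between these libraries, which may be technical. In bulk RNA a lower level per cell cannot be told apart from fewer cells that express the gene.

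Depth, recovered from the deposited values as whole reads, ran from 40356723 to 57269984 reads per library and was 1.35 times higher on average in the ETS1 group. ETS1 itself had 0.491 and 0.509 FPKM (reads corrected for gene length and for the depth of the library) in the controls and 1.84 and 1.87 FPKM in the ETS1 libraries, a ratio of 3.71. It reached the filter of a mean of 1 FPKM only through the ETS1 libraries, so no test of it is given. Of 5 simple epithelial markers, KRT8 rose (3.91 and 3.87 FPKM against 6.48 and 6.59 FPKM), KRT18 fell (10.2 and 10.5 FPKM against 8.35 and 8.29 FPKM) and EPCAM was not called (0.915 to 1.37 FPKM), while CDH1 (at most 1.08 FPKM) and KRT19 (at most 0.0224 FPKM) were below the filter. The markers KRT5, KRT14, KRT6A and TP63 of squamous epithelium were listed at 0 in both controls and reached at most 0.0165 FPKM in the ETS1 libraries. Of 6 fibroblast markers, 1 reached a mean of 1 FPKM, and neither of the 2 endothelial markers did. That fibroblast marker was COL1A1, which rose (2.17 and 2.06 FPKM against 2.81 and 2.88 FPKM). COL1A2 and the leukocyte marker PTPRC stayed at or below 0.0117 FPKM. The summed fibroblast markers, of which COL1A1 made up most, ran from 2.13 to 2.28 FPKM in the controls and from 3.09 to 3.19 FPKM with ETS1. Their part in the results below was not tested.

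Of the 42 genes, 40 had a mean FPKM of at least 1 and were tested; SFN and GADD45G did not reach it. The log2 change of a gene is its mean in the ETS1 libraries minus its mean in the controls on the log2(FPKM + 1) scale, which understates the change of low genes. The program did not move one way. With limma's moderated test adjusted over all genes, 17 of the 40 were called higher and 11 lower with ETS1, at an adjusted p under 0.05. Of all 14306 genes tested, 59.1% were called by the same rule, 30.7% higher and 28.4% lower, so 28 of 40 stands against a background in which most genes were called. MIR34A is among the 17 and passed the filter only through the ETS1 libraries. The median log2 change was 0.098 over the 40 genes and 0.016 over all genes tested, and the median absolute change was 0.23 against 0.20. The 2 groups did not overlap for 37 of the 40 genes, where 82% of all tested genes did not.

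Most of the called changes were small: 22 of 28 were under 0.5 on the log2 scale. The other 6 were MIR34A, TP53INP1, GDF15 and GADD45B, which rose, and TRIAP1 and RPS27L, which fell. Among all tested genes 10.6% were called with a change of at least 0.5. GADD45B, the least changed of the 6, stood at percentile 95.2 of the absolute change over all tested genes.

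**Figure D1:**
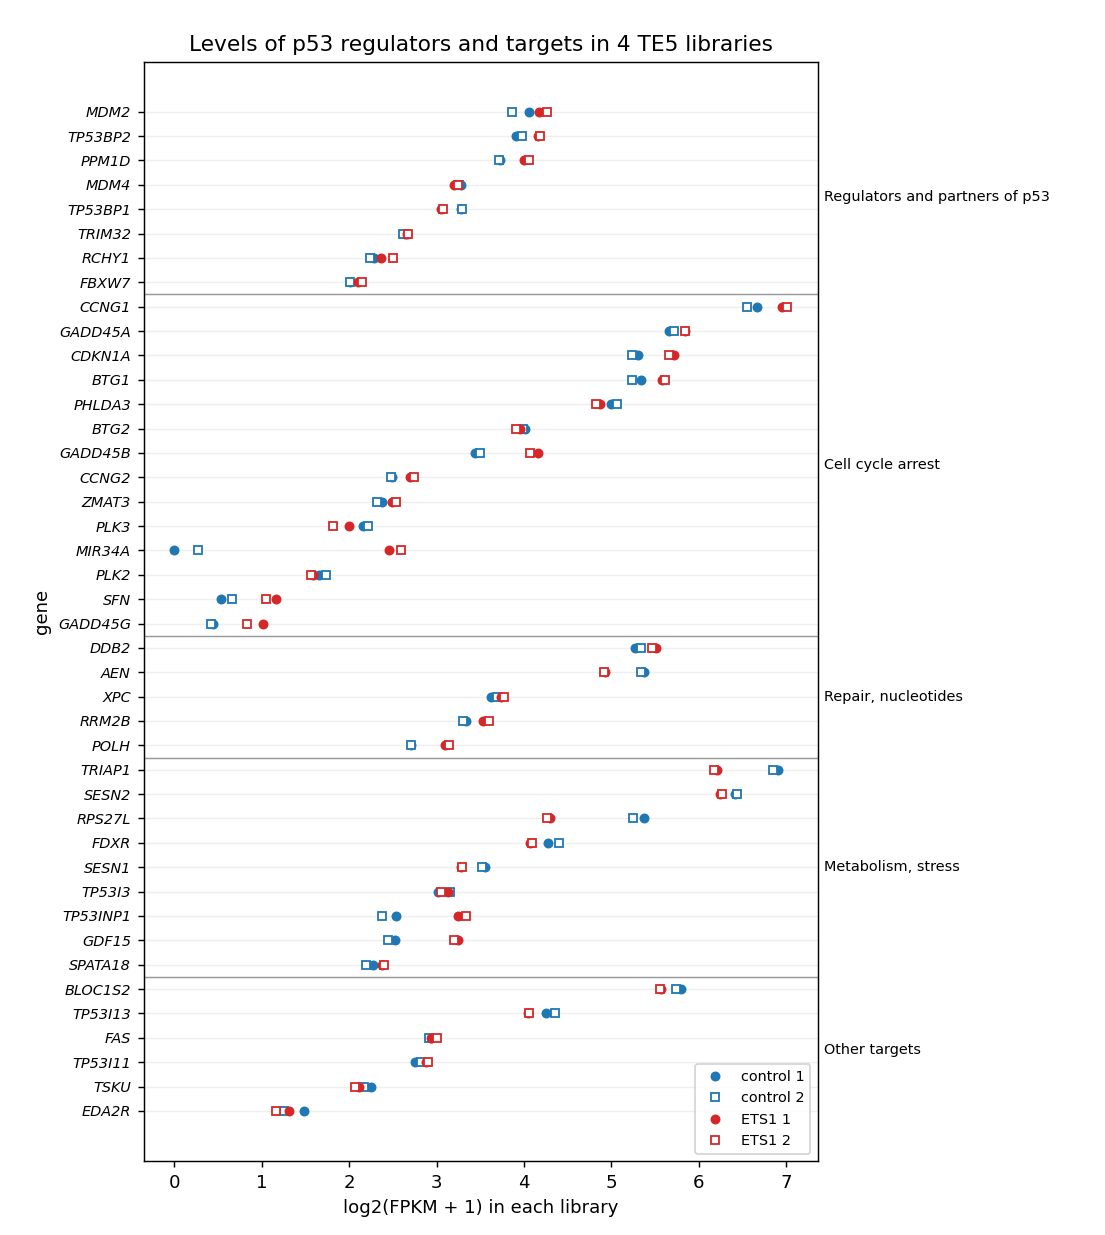
Level of each of the 42 genes in each of the 4 libraries, as log2(FPKM + 1) on the horizontal axis, grouped by role and ordered by mean level within a role; blue marks are controls, red marks are ETS1 libraries, circles are libraries numbered 1 and squares those numbered 2. CCNG1 and TRIAP1 were the most abundant genes, and the red and blue marks of MIR34A, TP53INP1, GDF15, TRIAP1 and RPS27L are well separated.

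Among the regulators and partners of p53, PPM1D, TP53BP2 and MDM2 rose, TP53BP1 fell, and the other 4 of 8 were not called, where 59.1% of all tested genes were called. PPM1D, the phosphatase that reverses damage signalling to p53, had 12.3 and 12.1 FPKM in the controls and 15.1 and 15.7 FPKM in the ETS1 libraries. Both ETS1 values were higher than both controls, with a ratio of 1.26, a log2 change of 0.31 (SE 0.034) and a limma adjusted p of 0.00196. TP53BP2 encodes ASPP2, which binds p53 and favours its apoptotic targets. It went from 13.99 and 14.7 FPKM to 16.9 and 17.2 FPKM, a log2 change of 0.24 (SE 0.035, limma adjusted p 0.00479).

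MDM2 had 15.6 and 13.5 FPKM in the controls and 17.0 and 18.1 FPKM in the ETS1 libraries. The controls differed from each other by more than the gap between the groups. Its log2 change of 0.26 (SE 0.074) passed narrowly, with a limma adjusted p of 0.0335. It did not pass under 7 of 14 alternatives, among them removal of the median change of its chromosomal neighbours (0.11, adjusted p 0.22), removal of a gene length trend (0.15, adjusted p 0.112) and the fits without ETS1 replicate 1 (adjusted p 0.0558), ETS1 replicate 2 (0.125) or control replicate 2 (0.0542). MDM4, which binds and masks the activation domain of p53, had 8.69 and 8.58 FPKM against 8.20 and 8.45 FPKM, which is -0.047 on the log2 scale (limma adjusted p 0.28). With the length trend removed MDM4 was lower (-0.20, adjusted p 0.00641), and likewise with the neighbours' median removed (-0.12, adjusted p 0.026). The level of MDM2 relative to MDM4, both per length, was 1.80 and 1.58 in the controls and 2.08 and 2.15 in the ETS1 libraries.

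TP53BP1, whose product 53BP1 binds p53 and directs the repair of DNA breaks, fell from 8.68 and 8.76 FPKM to 7.27 and 7.43 FPKM, a log2 change of -0.22 (SE 0.033, limma adjusted p 0.00472). It lies on chromosome 15, where the 344 tested protein-coding genes had a median change of -0.23. The 50 nearest tested neighbours had a median of -0.33, and relative to them TP53BP1 was higher (0.10, adjusted p 0.0369). In GENCODE 29, 28.7% of its exon bases are shared with TUBGCP4 on the opposite strand, and the use of strand in the counting is not given in the sources used here, so reads of the shared part cannot be told apart. The other ubiquitin ligase genes of the group, RCHY1, FBXW7 and TRIM32, were not called. RCHY1 changed by 0.18 (adjusted p 0.0551) and passed under voom on recovered reads (0.22, adjusted p 0.0134), without ETS1 replicate 1 (0.25, adjusted p 0.0389) and in the authors' deposited table (0.18, adjusted p 0.0477). FBXW7 (0.11) and TRIM32 (0.045) had limma adjusted p-values of 0.0788 and 0.329. FBXW7 passed under voom (0.15, adjusted p 0.0213), and TRIM32 passed relative to its neighbours on chromosome 9 (0.21, adjusted p 0.0044).

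Of 12 tested genes linked to cell cycle arrest, 8 were called higher, MIR34A with its filter limit among them, 2 lower and 2 not called, where 30.7% of all tested genes were higher and 28.4% lower. CDKN1A encodes p21, the inhibitor of cyclin-dependent kinases through which p53 stops the cycle. It had 38.4 and 36.5 FPKM in the controls and 51.4 and 49.6 FPKM in the ETS1 libraries. Each ETS1 value lay above each control, by 6.06 times the larger replicate range, with a ratio of 1.35, a log2 change of 0.42 (SE 0.037) and a limma adjusted p of 0.0012. CDKN1A kept its direction and passed under all 14 alternatives, with changes between 0.39 and 0.55.

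MIR34A, the gene of a microRNA that p53 induces and that lowers proteins of cell cycle entry, had 0 and 0.207 FPKM in the controls and 4.47 and 5.01 FPKM in the ETS1 libraries. Behind these values stand 0 and 1 control reads, against 28 and 31 reads with ETS1. Pooled over each group and scaled to depth, the ratio of reads was 43.8 with an exact 95% binomial interval of 7.56 to 1759, which covers counting error only. The log2 change was 2.38 (SE 0.112). Since the gene passed the filter only through the group where it is high, its call is not independent of the filter; with no filter the limma adjusted p was 0.00800. The change ran from 2.25 to 4.79 over 12 alternatives, the highest with a pseudocount of 0.1 FPKM. The gene is a stretch of 110 bases at chromosome 1, 9151668 to 9151777, on the minus strand of GRCh38. Reads there count the primary transcript or its hairpin, and mature microRNAs were not measured. All 110 bases lie in an exon of the host gene MIR34AHG in GENCODE 29 on the same strand, so the reads of the 2 cannot be told apart. Its paralogs MIR34B and MIR34C were listed at 0 in all 4 libraries.

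The sequences show what those reads cover and what the gene encodes; they are from RefSeq, build GRCh38.p14. In the hairpin, written 5′ to 3′, the 2 mature arms are in capitals. In the mature sequences the capitals mark the seed, bases 2 to 8, which pairs with target messengers.
MIR34A hairpin: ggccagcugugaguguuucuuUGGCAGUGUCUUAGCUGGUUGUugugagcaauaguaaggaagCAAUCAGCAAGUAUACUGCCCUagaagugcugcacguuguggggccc
hsa-miR-34a-5p: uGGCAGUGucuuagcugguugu
hsa-miR-34a-3p: cAAUCAGCaaguauacugcccu
hsa-miR-449a: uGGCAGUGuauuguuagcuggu
hsa-miR-34b-5p: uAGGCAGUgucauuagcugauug
The seed of miR-34a-5p is shared by 3 mature names in that table, miR-34a-5p, miR-449a and miR-449b-5p. miR-34b-5p has another seed. The entry for miR-34c-5p was not found in the table.

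GADD45B, a stress-induced growth arrest gene that also answers to NF-kB and TGF-beta, went from 9.81 and 10.3 FPKM to 16.8 and 15.8 FPKM, a ratio of 1.62 and a log2 change of 0.65 (SE 0.044, limma adjusted p 0.000727). Its relative GADD45A, a p53 target, changed less, from 49.6 and 51.5 FPKM to 56.1 and 56.3 FPKM, or 0.15 on the log2 scale (limma adjusted p 0.0114). The call of GADD45A was lost without ETS1 replicate 1 (adjusted p 0.0597) or replicate 2 (0.0666), and relative to its neighbours on chromosome 1, whose median was 0.21, the value was -0.063 (adjusted p 0.129). GADD45G, below the filter, was covered by 19 and 20 control reads and by 77 and 58 reads with ETS1, or 0.356 and 0.342 FPKM against 1.02 and 0.775 FPKM. SFN, which encodes the cell cycle protein 14-3-3 sigma, had 24 and 34 reads against 94 and 80 reads, or 0.451 and 0.584 FPKM against 1.24 and 1.07 FPKM. For both genes the ETS1 libraries lay above the controls. The authors' deposited table gives GADD45G a log2 fold change of 0.96 (adjusted p 0.0087) and SFN one of 0.83 (adjusted p 0.00914).

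The cyclin G genes rose together. CCNG1, whose product brings a phosphatase to MDM2, was the most abundant of the arrest genes, at 101 and 92.8 FPKM in the controls and 122 and 128 FPKM in the ETS1 libraries (log2 change 0.37, SE 0.049, limma adjusted p 0.00331). CCNG2, at 4.61 and 4.59 FPKM against 5.48 and 5.69 FPKM, changed by 0.23 (limma adjusted p 0.00611); with the neighbours' median removed the change was 0.13, still past the threshold (adjusted p 0.0294). BTG1, an antiproliferative gene, rose from 39.6 and 36.7 FPKM to 46.8 and 47.8 FPKM, a log2 change of 0.30 (SE 0.043, limma adjusted p 0.00399). Relative to its neighbours on chromosome 12 it rose by 0.15 (adjusted p 0.0251). Of its exon bases 10.4% are shared with another gene on the same strand and 6.70% on the opposite strand. BTG2, its relative and a p53 target, did not follow: it had 15.2 and 14.9 FPKM in the controls and 14.5 and 14.1 FPKM in the ETS1 libraries, a change of -0.068 (limma adjusted p 0.129). BTG2 passed with the neighbours' median removed (-0.16, adjusted p 0.0101). Whether BTG1 and BTG2 differ in their response was not tested.

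ZMAT3, an RNA-binding protein gene among the best known p53 targets, changed by 0.17 (limma adjusted p 0.0282), from 4.19 and 3.98 FPKM to 4.60 and 4.81 FPKM. This call held under 5 of 13 alternatives only; with the length trend removed the value was 0.038 (adjusted p 0.462), and it was lost without ETS1 replicate 1 (adjusted p 0.073), ETS1 replicate 2 (0.151) or control replicate 2 (0.0909). The fallers were PHLDA3, a repressor of AKT, and the polo-like kinase gene PLK3. PHLDA3 went from 30.8 and 32.4 FPKM to 28.3 and 27.2 FPKM (log2 change -0.18, limma adjusted p 0.0141), and PLK3 from 3.48 and 3.63 FPKM to 2.98 and 2.51 FPKM (-0.28, limma adjusted p 0.0249). In PHLDA3 19.1% of the exon bases are shared with another gene on the same strand. PHLDA3 lost the threshold under 4 of 14 alternatives, among them quantile normalization (-0.089, adjusted p 0.109) and the fit without ETS1 replicate 2 (adjusted p 0.0788). PLK3 lost it under 4 of 13, among them the fits without ETS1 replicate 2 (-0.19, adjusted p 0.0823), control replicate 1 (adjusted p 0.0517) or control replicate 2 (0.079). PLK2 changed by -0.12 (limma adjusted p 0.117) and passed relative to its neighbours on chromosome 5 (-0.24, adjusted p 0.0112).

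**Figure D2:**
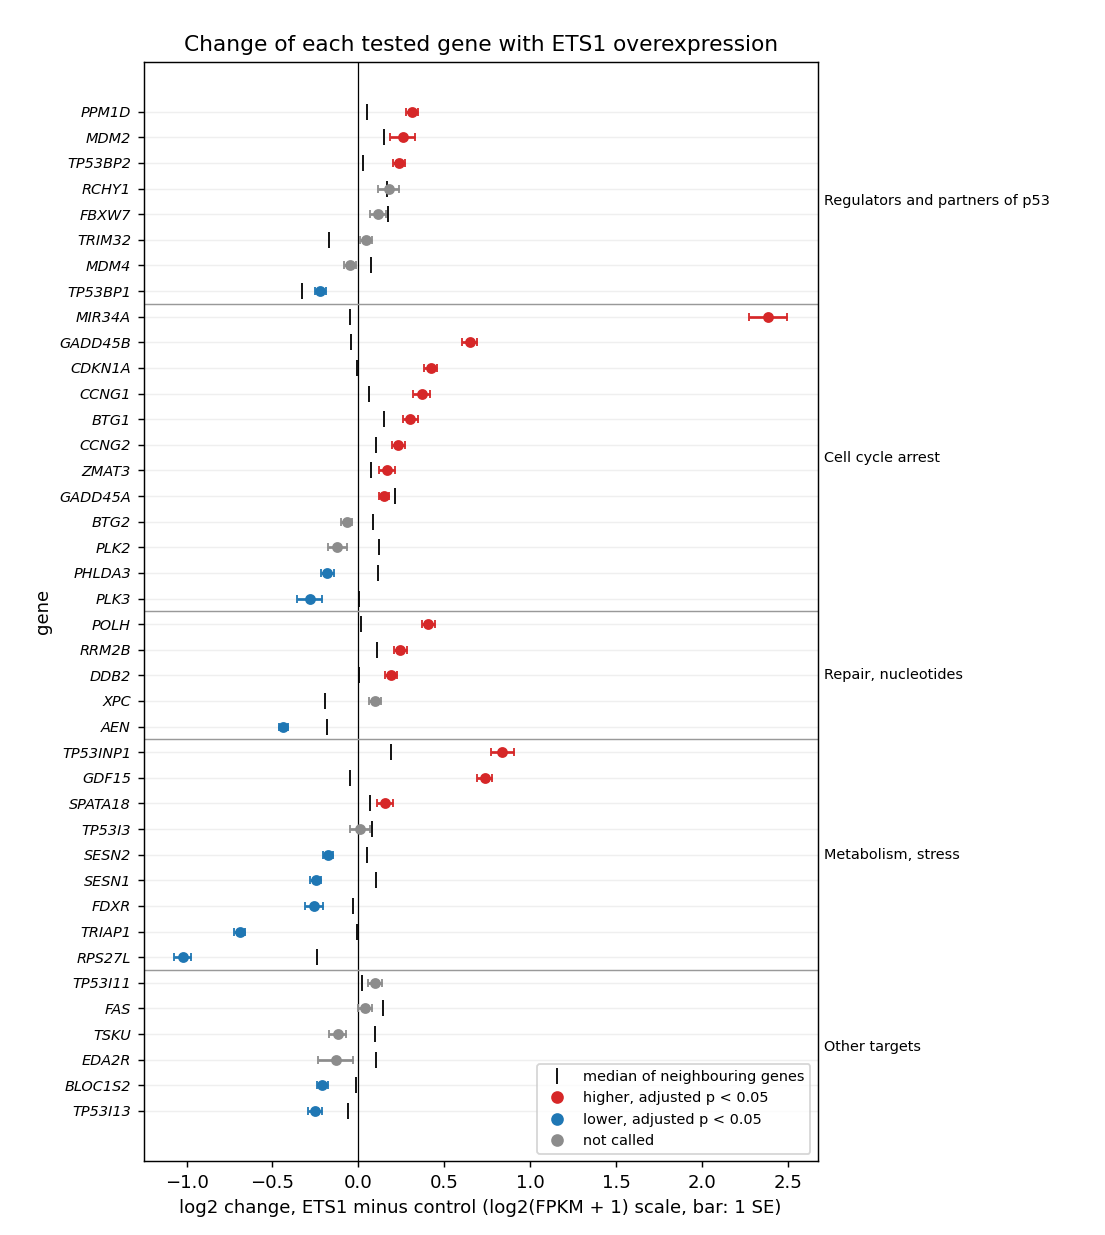
Log2 change of each of the 40 tested genes, ETS1 minus control on the log2(FPKM + 1) scale, with bars of 1 SE from limma (2 libraries per group); red is higher and blue lower at an adjusted p under 0.05, grey was not called, and black ticks give the median change of the 50 nearest tested protein-coding genes. In the metabolism and stress group TP53INP1 (0.84) and GDF15 (0.74) stand to the right while TRIAP1 (-0.69) and RPS27L (-1.02) stand far to the left of their neighbours.

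Of 5 genes of DNA repair and nucleotide supply, 3 were called higher, AEN lower and XPC not called, a group too small to set against the 30.7% of all genes called higher. POLH encodes DNA polymerase eta, which copies past ultraviolet lesions. It had 5.54 FPKM in both controls and 7.56 and 7.80 FPKM in the ETS1 libraries, a ratio of 1.39 and a log2 change of 0.41 (SE 0.035, limma adjusted p 0.00116). RRM2B, the p53-induced subunit of ribonucleotide reductase, went from 9.13 and 8.87 FPKM to 10.6 and 11.1 FPKM (0.25, SE 0.039, limma adjusted p 0.00552). It lies on chromosome 8, whose 381 tested protein-coding genes had a median of -0.15, although its 50 nearest neighbours had a median of 0.11; relative to them its change was 0.14 (adjusted p 0.0280).

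DDB2 and XPC encode the damage sensors of nucleotide excision repair. DDB2 rose from 37.5 and 39.3 FPKM to 44.7 and 43.3 FPKM, a change of 0.19 (limma adjusted p 0.00922) that was 0.30 under quantile normalization and lost the threshold without ETS1 replicate 1 (adjusted p 0.0541). XPC had 11.4 and 11.9 FPKM against 12.3 and 12.7 FPKM, a change of 0.097 (limma adjusted p 0.0781); relative to its neighbours, whose median was -0.19, it was higher (0.29, adjusted p 0.00184). In XPC 30.4% of the exon bases are shared with genes on the opposite strand, with the same limit as for TP53BP1. AEN, an exonuclease of apoptotic DNA breakdown, fell from 40.4 and 39.5 FPKM to 29.4 and 29.1 FPKM, a log2 change of -0.44 (SE 0.028, limma adjusted p 0.000655). AEN is on chromosome 15 as well, and with the neighbours' median of -0.18 removed the change was -0.25 (adjusted p 0.00126).

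The genes of metabolism, redox balance and stress moved both ways, with 3 of 9 called higher and 5 lower, where 59.1% of all tested genes were called. TP53INP1, a nuclear stress protein that helps p53 induce cell death and autophagy, had 4.79 and 4.17 FPKM in the controls and 8.49 and 9.08 FPKM in the ETS1 libraries. The ratio was 1.96 and the log2 change 0.84 (SE 0.068, limma adjusted p 0.00102), while the tested protein-coding genes of its chromosome, 8, had a median of -0.15 and its 50 nearest neighbours one of 0.19; relative to the neighbours the change was 0.65 (adjusted p 0.000907). GDF15, a secreted stress cytokine, had 4.73 and 4.46 FPKM against 8.49 and 8.16 FPKM, a ratio of 1.81 and a change of 0.74 (SE 0.044, limma adjusted p 0.000605). Both kept their direction and passed under all 14 alternatives, at 0.65 or more for TP53INP1 and 0.69 or more for GDF15. SPATA18, a mitochondrial quality control gene, changed by 0.15 (limma adjusted p 0.0398), but it passed under only 3 of 13 alternatives. The authors' deposited table gives SPATA18 an adjusted p of 0.13, and the fits without ETS1 replicate 1, ETS1 replicate 2 or control replicate 2 gave 0.122, 0.17 and 0.125.

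RPS27L and TRIAP1 fell furthest. RPS27L encodes a ribosomal protein S27-like protein that p53 induces and that acts on MDM2. It had 40.3 and 36.8 FPKM in the controls and 18.7 and 18.2 FPKM in the ETS1 libraries. Both ETS1 values lay far below both controls, with a ratio of 0.479, and the log2 change was -1.02 (SE 0.050, limma adjusted p 0.000482). Its neighbours on chromosome 15 had a median of -0.24, and with it removed RPS27L fell by 0.78 on the log2 scale (adjusted p 0.000289). How the counting treated reads that also match its paralog RPS27 is not given in the sources used here, so the level of RPS27L is uncertain to that extent. TRIAP1, a small p53 target that protects mitochondria from apoptosis, was the most abundant gene of the 42 in the controls, at 119 and 114 FPKM. It had 72.6 and 71.1 FPKM in the ETS1 libraries, a log2 change of -0.69 (SE 0.033, limma adjusted p 0.000482). Longer genes had higher changes across all tested genes (Spearman correlation 0.288, across genes, which are not replicates), and TRIAP1 has an inferred length of 1446 bases. With the length trend removed it fell by 0.60 (adjusted p 0.000547), and relative to its neighbours on chromosome 12 fell by 0.68 (adjusted p 0.000203).

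The sestrins, which restrain mTORC1 under stress, both fell. SESN1 went from 10.8 and 10.4 FPKM to 8.74 and 8.78 FPKM (log2 change -0.25, SE 0.033, limma adjusted p 0.00332). SESN2, at 84.0 and 85.7 FPKM against 74.4 and 75.6 FPKM, changed by -0.18 (SE 0.027, limma adjusted p 0.00502) and lost the threshold under quantile normalization (-0.045, adjusted p 0.204). FDXR, the mitochondrial ferredoxin reductase, went from 18.3 and 20.2 FPKM to 15.7 and 16.1 FPKM (-0.26, limma adjusted p 0.012), and did not pass without ETS1 replicate 1 (adjusted p 0.0531) or with no filter (0.0605). TP53I3, a quinone oxidoreductase known as PIG3, overlapped between the groups, with 7.07 and 7.88 FPKM against 7.74 and 7.31 FPKM and a limma adjusted p of 0.898. TIGAR, a fructose bisphosphatase, is outside these counts; a row under its older symbol C12orf5, paired through RefSeq synonyms, had 18.6 and 18.8 FPKM against 19.997 and 18.5 FPKM, a change of 0.041 (limma adjusted p 0.453).

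Of the other 6 targets, BLOC1S2 and TP53I13 were lower and none was called higher, where 28.4% of all tested genes were lower and 30.7% higher. BLOC1S2, a subunit of complexes that position lysosomes, went from 54.6 and 52.6 FPKM to 46.3 and 46.1 FPKM (log2 change -0.21, limma adjusted p 0.00426), a call lost under quantile normalization (-0.080, adjusted p 0.0595). TP53I13 went from 18.1 and 19.4 FPKM to 15.6 FPKM in both ETS1 libraries (-0.25, limma adjusted p 0.00597). FAS, the receptor of FAS ligand, overlapped between the groups, at 6.65 and 6.55 FPKM against 6.62 and 7.02 FPKM (limma adjusted p 0.426). EDA2R, a receptor of ectodysplasin A2, overlapped as well, at 1.79 and 1.39 FPKM against 1.48 and 1.24 FPKM (limma adjusted p 0.315). TP53I11 changed by 0.099 (adjusted p 0.0905), and TSKU, a secreted leucine-rich repeat protein, by -0.12 (adjusted p 0.0955). TP53I11 passed under voom (adjusted p 0.0471), and TSKU relative to its neighbours (-0.22, adjusted p 0.0122) and under quantile normalization (-0.16, adjusted p 0.0396).

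The authors' own comparison was set beside these values. In the authors' deposited table, 41 of the 42 genes have an adjusted p, with 18 higher and 11 lower at 0.05; that table calls 51.2% of its 15683 genes with an adjusted p. The authors' deposited table and limma shared 26 called genes, all 26 in the same direction. MIR34A is the gene without an adjusted p there, with a log2 fold change of 4.51. For RPS27L the authors' deposited table gives -1.08, for TRIAP1 -0.71, for TP53INP1 0.94 and for CDKN1A 0.40.

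**Figure D3:**
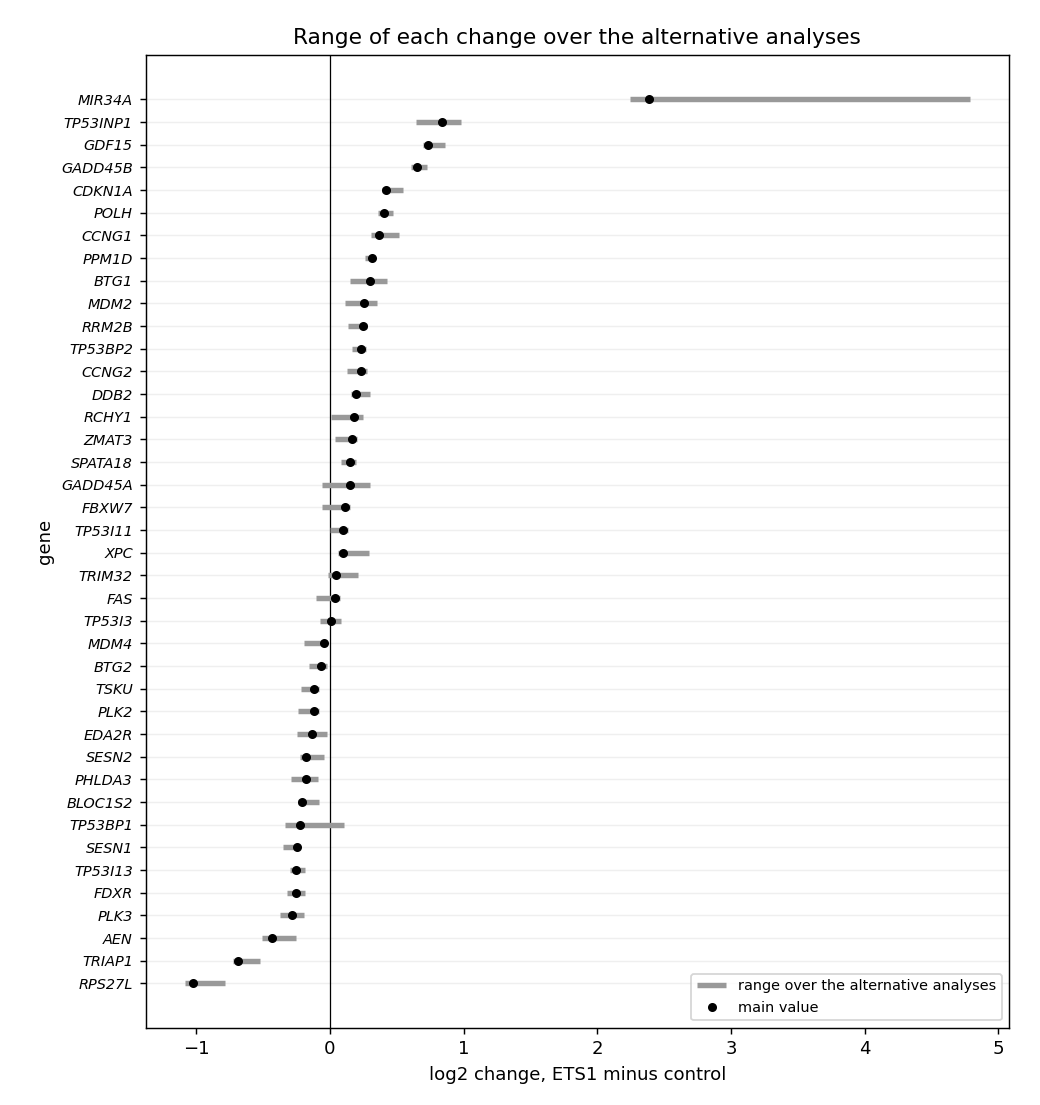
Main log2 change (dot) and its range over up to 14 alternative analyses (grey bar) for each of the 40 tested genes, on the log2 axis of ETS1 minus control, ordered by the main value. RPS27L, TRIAP1 and AEN stay below 0 and TP53INP1, GDF15, GADD45B and CDKN1A above 0 in every alternative, while the bars of TP53BP1 and GADD45A cross 0.

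Promoter windows were read for the letters that p53 and ETS factors bind. RefSeq windows from 250 bases before to 50 bases after a start (GRCh38.p14) were found for 37 of the 42 genes; MIR34A, TP53INP1, RRM2B and GADD45A, called higher, and PHLDA3, called lower, are outside the counts below. The 10-base p53 half-site consensus reads the same on both strands. It was in a window of 7 of these 37 genes (18.9%), against 8.06% of all 27305 genes with a window, which include genes not tested here. Genes differ in their number of windows. Counted by window, 11.3% of the 62 windows of these genes held the half-site, against 6.63% of all 35116 windows. The half-site lay in windows of SESN1, RPS27L, AEN and FDXR, which fell, DDB2, which rose, and PLK2 and FAS, which were not called. DDB2 held a pair of half-sites 1 base apart just after its start, at chromosome 11, 47214979 to 47214999; 10 of 35116 windows held a pair at most 13 bases apart. These stretches are shown because a p53 half-site was found in them next to genes that moved in opposite directions. Of those shown, only DDB2 held a pair, and the others held a single half-site. They run 5′ to 3′ along each gene's own strand, with the half-sites in capitals and no base after the start except for DDB2.
DDB2 (11, plus strand): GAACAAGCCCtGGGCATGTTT
SESN1 (6, minus strand): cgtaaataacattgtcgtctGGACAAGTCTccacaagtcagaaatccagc
RPS27L (15, minus strand): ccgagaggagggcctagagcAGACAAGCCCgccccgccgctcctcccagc
AEN (15, plus strand): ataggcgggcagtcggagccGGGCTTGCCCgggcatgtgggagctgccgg
FDXR (17, minus strand): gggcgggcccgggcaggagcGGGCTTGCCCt
The stretches lie at chr6:109009008-109009057 for SESN1, chr15:63157507-63157556 for RPS27L, chr15:88621286-88621335 for AEN and chr17:74872995-74873025 for FDXR. A match is a run of letters and no binding was measured; enhancers and introns, where sites of CDKN1A and MDM2 are known, are outside these windows.

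The ETS core CCGGAA, searched on both strands, was in a window of 13 of the 37 genes (35.1%) against 20.1% of all genes with a window. Counted by window, the shares were 25.8% and 17.2%. By call the core was in 7 of the 10 lower genes with a window and in 1 of the 13 higher genes. It was in 5 of the 14 that were not called or not tested. Its share among all tested genes called lower or higher was not computed, so these counts cannot show a trait of the p53 genes. They are a description over few genes, and genes differ in their number of windows. The higher gene was CDKN1A, shown here as the central arrest gene, with the core as TTCCGG in capitals at chr6:36678508-36678553 on the plus strand.
CDKN1A: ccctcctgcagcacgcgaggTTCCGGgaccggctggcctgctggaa

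Other genes of the pathway came from 3 lists, chosen with earlier results of these data known. Of 26 upstream regulators of p53, 25 were tested, with 10 higher (40%), 6 lower (24%) and a median log2 change of 0.070. Over all tested genes 30.7% were higher and 28.4% lower, so the share called, 64%, was near the 59.1% of all genes. ATR, the kinase that senses stalled replication, rose most (0.44), followed by the acetyltransferase EP300 (0.37) and PPP1R13L (0.36), which encodes the inhibitory partner iASPP. CDKN2A (-0.32) fell most, followed by RPL11 (-0.31) and RPL5 (-0.23), the latter 2 encoding ribosomal proteins that restrain MDM2. The chromosomal neighbours of ATR had a median of 0.15, those of CDKN2A 0.17 and those of RPL5 0.19. All 6 of these genes had limma adjusted p-values of at most 0.00389. With the length trend removed 5 of the list were higher in place of 10, and 5 were higher without ETS1 replicate 2.

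Of 47 further p53 targets, 40 were tested, with 14 higher (35%), 11 lower (27.5%) and a median of -0.0076. The share called, 62.5%, was near the 59.1% of all tested genes. SLC12A4 (0.69), the cell cycle repressor E2F7 (0.65) and DGKA (0.45) rose most. CDIP1 (-0.51), the receptor kinase EPHA2 (-0.48) and the glutaminase GLS2 (-0.42) fell most. The lower calls went to 6 without ETS1 replicate 1 and to 6 without ETS1 replicate 2.

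The last list held 14 mitotic and cell cycle genes that p53 is known to repress through p21 and the DREAM complex. Of these, 10 were higher (71.4%) and 3 lower (21.4%), with a median of 0.29, where 30.7% of all tested genes were higher and 28.4% lower. CENPF (0.57), FOXM1 (0.46) and TOP2A (0.44) rose most, and CCNB2 (-0.44), E2F1 (-0.29) and MYBL2 (-0.24) fell. The chromosomal neighbours of CCNB2 had a median of -0.23. The 6 genes named from this list had limma adjusted p-values of at most 0.00530. CDKN1A and most genes of this list were both higher with ETS1. The list was chosen with earlier results of these data known, so its shares are a description and were not tested as a set.

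**Figure D4:**
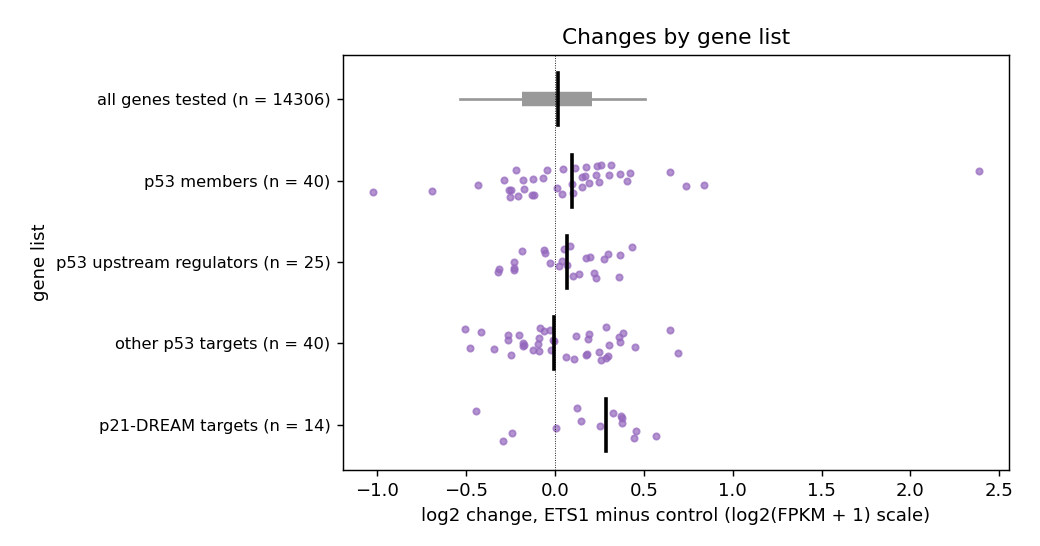
Log2 change, ETS1 minus control on the log2(FPKM + 1) scale, for every tested gene of 4 lists (purple points, spread vertically for legibility) and for all 14306 genes tested (thick bar from percentile 25 to 75, thin line from 5 to 95); black bars are medians. The p53 regulators and targets lie on both sides of 0 with a median of 0.098, and the p21-DREAM targets have a median of 0.29. The lists were chosen with earlier results of these data known.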

How the data were processed

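Total RNA gave 2 control and 2 ETS1 bulk libraries. The authors deposited FPKM per gene and a comparison table with log2 fold changes, p-values and a mean normalized count, which is a signal averaged over the 4 libraries, per the file headers. HISAT2, HTSeq and DESeq2 with GRCh38 are named in the submitters' processing notes, without versions; the annotation and the strand setting are not given in the sources used here. Whether the deposited log2 fold changes were shrunk is not stated.

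Reads were recovered from the FPKM and the deposited mean normalized count: for the 2885 genes of lowest mean, 99.3% of the recovered values were whole to within 0.05, and for the 8566 genes of highest mean 99.9%. FPKM is not a count, so limma 3.58.1 (R 4.3.3) was fitted to log2(FPKM + 1) where the mean FPKM reached 1 (14306 genes), with an intensity trend, 2 residual and 2.84 prior degrees of freedom, two-sided tests and Benjamini-Hochberg adjustment over all genes tested at 0.05. An exact permutation test of 2 against 2 cannot go below 0.333 and was not used. The fit was tested on simulated data. Replicates differed by more than counting noise (mean chi-square per gene of 3.94 in both groups), so none was a library deposited again; this does not show that they came from separate cultures.

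Positions come from GENCODE 29, matched by name for 84.0% of tested genes, and local medians from the 25 nearest tested protein-coding genes on each side. All 42 listed symbols are named by role; of the other lists, the 3 called members with the largest change in each direction. The summed leukocyte markers are not reported here. The symbols, lists and alternatives were chosen with earlier results of these data known. Alternative settings were a pseudocount of 0.1, no filter, a minimum of 5, trimmed-mean scaling, quantile normalization, a replicate block, voom on recovered reads, the deposited comparison, removal of local medians or a length trend, and leaving out each library.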

Additional observations from a re-analysis of the deposited data

How the results depend on the processing

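Of the 28 genes called among the p53 regulators and targets, 17 kept direction and threshold under every alternative that gave a value. MIR34A, which passed the filter only through the ETS1 libraries, is among these 17 and had a value under 12 alternatives. Of the 28, 2 reversed: with local chromosomal medians removed TP53BP1 was 0.10 and GADD45A -0.063. Of the 12 not called, 9 passed at least once and 4 reversed. With local medians removed FBXW7 was -0.056, FAS -0.10 and TP53I3 -0.071; under quantile normalization TRIM32 was -0.014, FAS -0.012 and TP53I3 -0.029; FBXW7 was -0.021 with the length trend removed; TP53I3 was -0.0095 under trimmed-mean scaling, -0.012 in the authors' deposited table and -0.060 to 0.080 over the fits that each left out a library. The cause of these moves was not tested. The median change of the 40 genes was 0.049 with the length trend removed, 0.044 with local medians removed, 0.053 under quantile normalization, 0.078 under trimmed-mean scaling and 0.065 to 0.11 over the fits that left out a library; those fits called 13 to 17 of the genes higher and 9 to 10 lower.

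At a mean FPKM of at least 5, which tests fewer genes, 2562 of all genes were higher, 7 further p53 targets were lower and 5 upstream regulators higher; the last count was also 5 with the length trend removed. Leaving out a library gave 2845 (without ETS1 replicate 2) to 3962 higher genes in all, 6 to 10 further targets lower and 5 to 10 upstream regulators higher. With the replicate number as a block 14 of the genes were called higher and 11 lower, and MDM2 (adjusted p 0.0567), ZMAT3 (0.0666) and SPATA18 (0.0805) did not pass. The libraries share only a number: the correlation of same-numbered deviations was -0.046. Depth limits MIR34A, which rests on 0 to 31 reads a library.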
